A study of Mus musculus with 16 samples.

Results

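The 10 genes described here mark macrophages: Csf1r, C1qa, C1qb, C1qc, Mrc1, Cd68, Vsig4, Cd163, Marco and Mertk. They were taken by symbol from the 36829 features that the files list for each mouse, and each symbol names 1 feature. RNA was measured in the cortical bone of the femur of 16 female C57Bl/6 mice aged 11 weeks. The 8 HLU mice underwent hindlimb unloading for 7 days by tail suspension, and the 8 control mice bore weight normally. The ends of the bones had been cut off and the marrow flushed out with saline, and each mouse gave 1 library. The labels name no transgene or deletion, and nothing in them ties a control mouse to an HLU mouse. The values are RPKM, reads scaled to the length of the gene and to the size of the library, so levels of different genes can be set side by side per length.

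Macrophages are phagocytes that take up dead cells, microbes, old red cells and debris. Their survival depends on signals through the receptor Csf1r, and in bone they lie along bone surfaces, around blood vessels and in the marrow, where some form the centre of islands of maturing red cells. Osteoclasts, the cells that resorb bone, come from the same lineage and also carry Csf1r. Macrophages are the main source of the complement protein C1q, which is built of the chains A, B and C and marks immune complexes and dying cells. Which of the genes a macrophage expresses differs with its place: Cd163, Mrc1, Vsig4 and Mertk are typical of resident scavenging macrophages, Marco of some barrier and lymphoid macrophages, and Cd68 of nearly all mononuclear phagocytes. In bulk tissue, fewer macrophages and less RNA per macrophage cannot be told apart.

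In the GENCODE M21 annotation of GRCm38, the C1q chains are neighbours on the minus strand of chromosome 4, with C1qb at chr4:136880129-136886187, C1qc at chr4:136889804-136893065 and C1qa at chr4:136895917-136898803. Mrc1 at chr2:14229392-14332057 and Mertk at chr2:128698956-128802894 lie on the plus strand of the same chromosome, far from each other. Cd68 is at chr11:69664213-69666153, Vsig4 at chrX:96247203-96293438 and Marco at chr1:120474538-120505024, all on the minus strand, and Cd163 is at chr6:124304656-124330527 on the plus strand. Csf1r overlaps Hmgxb3 on the other strand and Mir6983 on its own, Mertk overlaps Gm14011 on the other strand and Gm23172 on its own, and Mrc1 overlaps Mir511 on its own. These overlaps are of whole genes from start to end, and exons were not compared. The strand used in counting is not given in the sources used here. Whether reads of the overlapping genes enter the values of Csf1r, Mertk and Mrc1 is therefore not known.

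The 250 bases before the start site are shown for 6 of the genes, 3 from each of the groups that varied together between mice, as described with the correlations. The sequences are those of RefSeq on GRCm38.p6 and run 5′ to 3′ toward the gene. Capitals mark matches to GAGGAA or its reverse complement TTCCTC, the core bound by PU.1, the transcription factor that sets the macrophage lineage, and to TGCTGA or TCAGCA, the short core bound by MAF factors. The motifs do not overlap each other in these windows.
C1qb, chr4:136886201-136886450, minus strand: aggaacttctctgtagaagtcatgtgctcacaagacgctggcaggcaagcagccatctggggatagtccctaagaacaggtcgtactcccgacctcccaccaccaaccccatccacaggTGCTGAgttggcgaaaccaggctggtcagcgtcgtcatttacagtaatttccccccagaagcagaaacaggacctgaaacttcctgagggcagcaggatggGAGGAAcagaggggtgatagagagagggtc
Cd68, chr11:69666171-69666420, minus strand: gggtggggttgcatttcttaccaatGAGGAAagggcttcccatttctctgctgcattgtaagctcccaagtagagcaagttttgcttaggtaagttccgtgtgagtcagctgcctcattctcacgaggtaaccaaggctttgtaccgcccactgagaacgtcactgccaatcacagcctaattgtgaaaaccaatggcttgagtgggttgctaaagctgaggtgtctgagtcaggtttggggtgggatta
Marco, chr1:120505025-120505274, minus strand: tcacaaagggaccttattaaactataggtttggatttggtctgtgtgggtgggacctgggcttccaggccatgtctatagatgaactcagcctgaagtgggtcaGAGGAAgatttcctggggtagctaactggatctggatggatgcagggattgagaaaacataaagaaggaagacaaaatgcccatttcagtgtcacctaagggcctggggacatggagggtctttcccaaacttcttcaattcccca
Vsig4, chrX:96293439-96293688, minus strand: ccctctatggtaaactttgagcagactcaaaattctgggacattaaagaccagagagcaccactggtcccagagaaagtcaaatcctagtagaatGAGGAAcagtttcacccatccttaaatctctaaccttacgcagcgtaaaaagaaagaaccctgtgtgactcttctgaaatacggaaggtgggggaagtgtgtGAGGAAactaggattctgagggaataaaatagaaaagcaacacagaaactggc
Cd163, chr6:124304401-124304650, plus strand: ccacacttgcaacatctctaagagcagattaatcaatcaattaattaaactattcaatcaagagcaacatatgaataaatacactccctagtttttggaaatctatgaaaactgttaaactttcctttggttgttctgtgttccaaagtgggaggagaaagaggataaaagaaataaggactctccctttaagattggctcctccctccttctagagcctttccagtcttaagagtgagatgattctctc
Mertk, chr2:128698665-128698914, plus strand: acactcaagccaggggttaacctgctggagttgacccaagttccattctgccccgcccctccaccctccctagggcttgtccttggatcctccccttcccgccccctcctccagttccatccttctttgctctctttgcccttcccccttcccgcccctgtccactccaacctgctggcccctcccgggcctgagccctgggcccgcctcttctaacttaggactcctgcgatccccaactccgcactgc

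The RefSeq table held this window for 8 of the 10 genes. The PU.1 core was found in 6 of the 8, against 23.3% of the 32851 promoters in the table, and the MAF core in 1 of the 8, against 16.1%. In C1qb the PU.1 core began 30 bases before the start, and in Cd68 and Marco 225 and 146 bases before it. Vsig4 held it 155 and 53 bases before the start. Mrc1, not printed, held it 3 times and C1qc once. Cd163 and Mertk had no match in this window. The E-box CACGTG, bound by many basic helix-loop-helix factors, was searched on both strands and found in 0 of the 8, against 6.02% of all promoters. A match is only a run of letters, and no binding was measured.

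Before any result, 5 libraries have to be named: Control 1, Control 2, HLU 1, HLU 2 and HLU 3. They stood apart from the other 11 in a set of transcripts, clearest in the small nucleolar RNA gene Snora21, at 109 to 138 RPKM in the 5 and 15.04 to 33.6 RPKM in the 11. Of the 16973 features that averaged 0.5 RPKM or more, 2.13% had values that did not overlap between the 5 and the 11. The labels give no batch, and the set was chosen after the values were seen, so the comparison of HLU with control mice and the correlations between the 10 genes are also given with the set taken into account and without the 5. The reads by which the libraries had been scaled ranged from 7067512 to 21363584. On 1 kb of transcript, 3 reads gave 0.140 to 0.424 RPKM.

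All 10 genes were above this range in mean and passed the filter. C1qb had the highest mean, 66.1 RPKM over the 16 mice and rank 617 of 16973. C1qa had 41.6, Cd68 34.3, Csf1r 23.7, Mrc1 22.8, C1qc 15.1, Cd163 12.4 and Mertk 10.3 RPKM. Marco at 1.59 RPKM and Vsig4 at 0.918 RPKM were far lower, at ranks 13142 and 15105, with 6 to 291 and 8 to 63 reads per mouse. Csf1r and Mrc1, next to each other in this order, did not differ beyond their spread, as their ratio in single mice ran from 0.490 to 1.65.

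None of the 10 genes changed with unloading in limma at an unadjusted p under 0.05 and at least 1.2-fold, a limit that 5.87% of all features passed. At an adjusted p under 0.1, 0 of the 16973 features passed. All 10 log2 fold changes (HLU minus control) were below 0 on RPKM as deposited, from -0.29 for C1qa to -0.08 for Marco, but so were those of 67.9% of all features. With a pseudocount of 1 or median-of-ratios size factors the value of Marco was above 0, and after quantile normalization those of Csf1r, Cd68, Vsig4, Marco and Mertk were. The median over the 10 was -0.13 and over all features -0.10, and quantile normalization moved these to -0.0019 and 0.0010. Adjusted p-values ran from 0.777 to 0.974 and exact permutation p-values from 0.316 to 0.904. The differences between mice of 1 group were larger than those between the groups, as the plot by mouse shows.

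**Figure D1:**
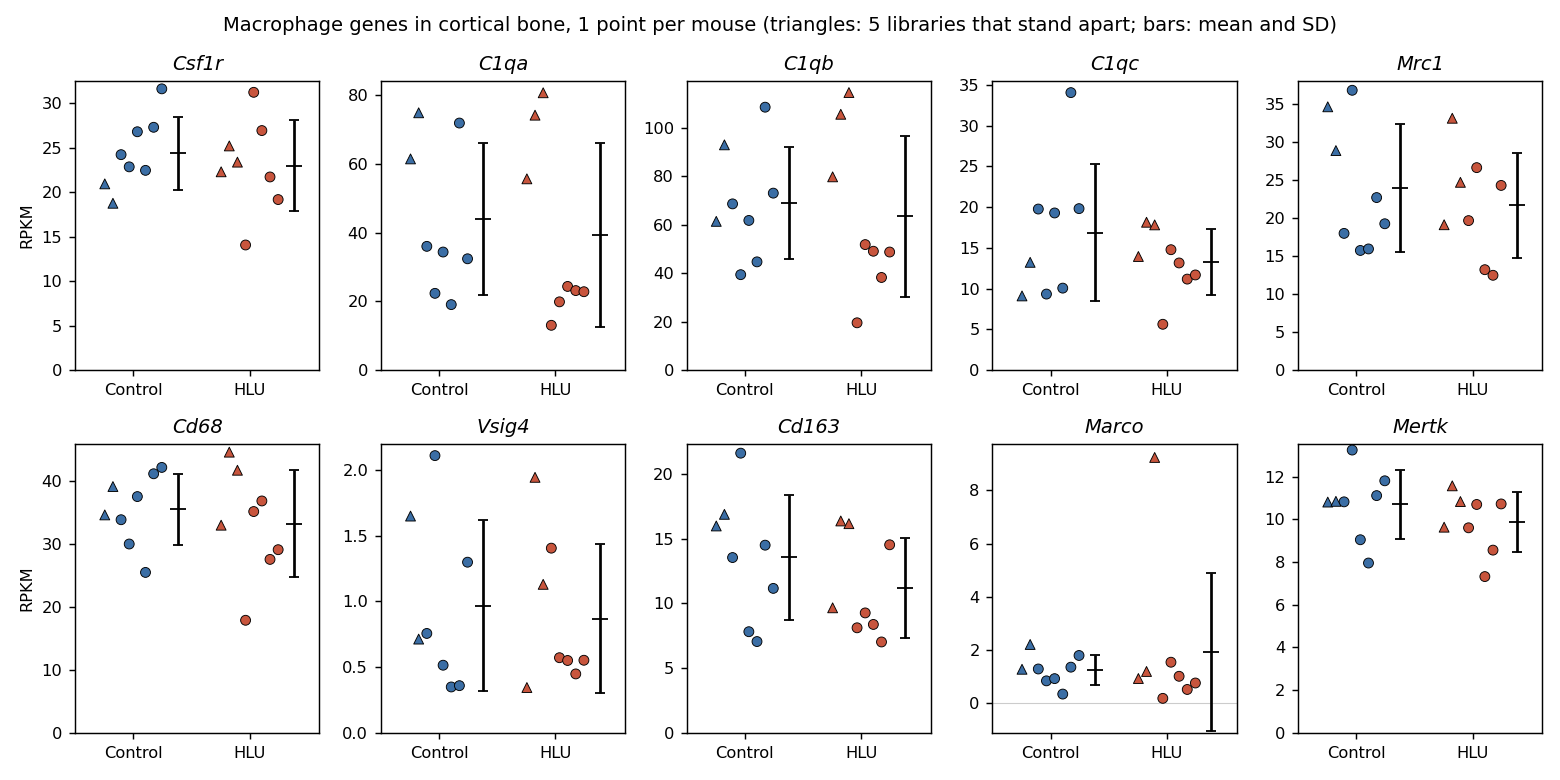
RPKM of the 10 genes on linear axes, 1 point per mouse for 8 control (blue) and 8 HLU (red) mice, with triangles for the 5 libraries that stand apart and bars for mean and SD. The groups overlap for every gene, and C1qa is at 55.6 to 80.6 RPKM in the 5 libraries against 13.1 to 36.0 RPKM in 10 of the other 11.

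Csf1r, the receptor for the growth factors Csf1 and Il34, ran from 18.8 to 31.6 RPKM in control mice with a median of 23.5. In HLU mice it ran from 14.1 to 31.2 RPKM with a median of 22.8, and only HLU 4 lay below the control range. The means were 24.4 ± 4.08 and 23.0 ± 5.14 RPKM (SD, n = 8 each), and on the log2 scale the difference was -0.10 (SE 0.15, exact permutation p = 0.523). The 95% interval of the fold change, from the standard error and 14 degrees of freedom, was 0.749 to 1.16, which sets the size of a change that could have gone unseen.

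The C1q chains varied most among the abundant genes. C1qa ran from 19.1 to 74.8 RPKM in control mice (median 35.2) and from 13.1 to 80.6 RPKM in HLU mice (median 23.7). The high values in both groups were those of the 5 libraries, joined by Control 7 at 71.8 RPKM. Its means were 44.0 ± 22.1 and 39.2 ± 26.8 RPKM (SD, n = 8 each), and on the log2 scale the difference was -0.29 (SE 0.40, exact permutation p = 0.501). C1qb ran from 39.4 to 108.5 RPKM in control mice (median 65.2) and from 19.6 to 114.6 RPKM in HLU mice (median 50.5). The means of 68.8 ± 23.1 and 63.4 ± 33.3 RPKM (SD, n = 8 each) gave a log2 fold change of -0.24 (SE 0.32, exact permutation p = 0.503). HLU 4 was again the lowest mouse and HLU 3 the highest. C1qc ran from 9.11 to 34.1 RPKM in control mice (median 16.3) and from 5.63 to 18.2 RPKM in HLU mice (median 13.6). The means of 16.8 ± 8.41 and 13.3 ± 4.01 RPKM (SD, n = 8 each) gave a log2 fold change of -0.27 (SE 0.28, exact permutation p = 0.393). Control 7 alone carried the top of the control range, with the next mouse at 19.8 RPKM.

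The difference in the C1q chains changed with the handling of the 5 libraries, though that of C1qc hardly moved when they were a term. With the library set as a term, the log2 fold changes were -0.47 (SE 0.24) for C1qa, -0.35 (SE 0.26) for C1qb and -0.28 (SE 0.29) for C1qc, and none passed the unadjusted limit. Of all features 9.7% passed it in that fit, 7.06% lower and 2.64% higher, and 0.00589% passed the adjusted limit. The smallest adjusted limma p among the C1q chains was 0.486, for C1qa. Without the 5 libraries, among 6 control and 5 HLU mice, C1qa had a log2 fold change of -0.70 (SE 0.30), C1qb of -0.67 (SE 0.30) and C1qc of -0.66 (SE 0.34). In that comparison 2 of the 10 genes, C1qa and C1qb, passed the unadjusted limit and were lower. Of all features 11.9% passed it, 9.23% lower and 2.64% higher, and 0.00589% passed the adjusted limit. The adjusted limma p-values were 0.416 for C1qa and 0.417 for C1qb. The exact permutation test over the 462 splits of the 11 mice gave p = 0.054 for C1qa, 0.069 for C1qb and 0.121 for C1qc. The other 7 genes had log2 fold changes from -0.49 for Marco to -0.15 for Mrc1 and did not pass.

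**Figure D2:**
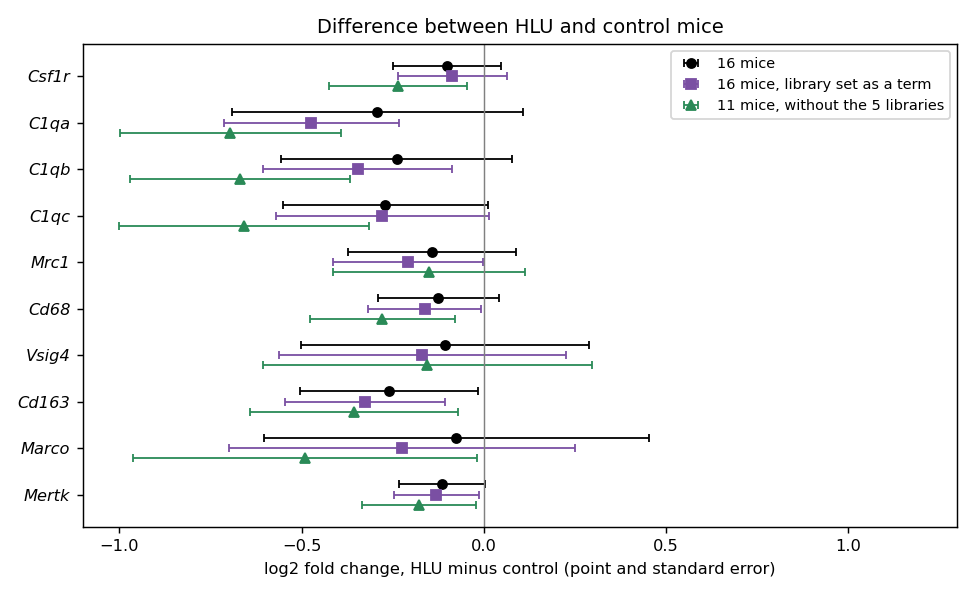
Log2 fold change, HLU minus control, with its standard error for each gene from 3 limma fits: 16 mice (black circles), 16 mice with the library set as a term (purple squares) and the 11 mice without the 5 libraries (green triangles). The points lie left of 0, and the C1q chains move from -0.24 to -0.29 with 16 mice to between -0.66 and -0.70 with 11.

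Among the scavenger receptors, Mrc1, the mannose receptor, ran from 15.7 to 36.8 RPKM in control mice (median 21.0) and from 12.5 to 33.1 RPKM in HLU mice (median 22.0). The median was higher and the mean lower in HLU mice, 21.6 ± 6.95 against 23.97 ± 8.39 RPKM (SD, n = 8 each, log2 fold change -0.14, SE 0.23, exact permutation p = 0.564). Cd163, which takes up haemoglobin bound to haptoglobin, ran from 7.05 to 21.6 RPKM in control mice (median 14.01) and from 7.02 to 16.4 RPKM in HLU mice (median 9.46). Of the 8 HLU mice 5 lay below the control median and 7 within the control range, and the log2 fold change was -0.26 (SE 0.24, exact permutation p = 0.324). Marco, a class A scavenger receptor, ran from 0.346 to 2.21 RPKM in control mice (median 1.28) and from 0.185 to 9.24 RPKM in HLU mice (median 0.972). The top value was that of HLU 3 alone, the next HLU mouse being at 1.54 RPKM. It lifted the HLU mean to 1.92 ± 2.98 RPKM (SD, n = 8), above the control mean of 1.26 ± 0.576 RPKM (SD, n = 8), while the mean of log2 values was lower by 0.08 in HLU mice (log2 fold change -0.08, SE 0.53, exact permutation p = 0.904).

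Cd68, a glycoprotein of lysosomes and endosomes, ran from 25.5 to 42.1 RPKM in control mice (median 36.0) and from 17.9 to 44.5 RPKM in HLU mice (median 34.0). Its log2 fold change was -0.12 (SE 0.17, exact permutation p = 0.4998), with a 95% interval of the fold change from 0.716 to 1.18. Mertk, a receptor that binds dead cells through Gas6 and protein S, was the steadiest of the genes. It ran from 7.96 to 13.2 RPKM in control mice (median 10.8) and from 7.32 to 11.6 RPKM in HLU mice (median 10.2), with a log2 fold change of -0.11 (SE 0.12, exact permutation p = 0.316) and an interval from 0.774 to 1.10. Vsig4, a complement receptor of resident macrophages that binds C3 fragments, ran from 0.349 to 2.11 RPKM in control mice (median 0.735) and from 0.345 to 1.94 RPKM in HLU mice (median 0.562). With few reads its log2 fold change was -0.11 (SE 0.40, exact permutation p = 0.790), and a fold change between 0.515 and 1.67 lay within the interval.

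The second question was whether the genes varied together from mouse to mouse. Correlations were computed on log2(RPKM + 0.1) with each group's mean removed, over the 16 mice, with 100000 permutations of the mice within groups and Benjamini-Hochberg adjustment over the 45 pairs. Of the 45 pairs, 20 had an unadjusted p under 0.05 and 15 an adjusted p under 0.05, all positive, and the median r was 0.42. The genes fell into 2 sets, read off from these values and so described without a test. Csf1r, the C1q chains, Cd68 and Marco formed the first, in which 10 of 15 pairs passed with a median r of 0.71, the lowest being 0.16 for Csf1r and C1qa. Mrc1, Cd163, Mertk and Vsig4 formed the second, in which 5 of 6 passed with a median r of 0.73. Of the 24 pairs between the sets 0 passed, with r from -0.31 to 0.55 and a median of 0.20.

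**Figure D3:**
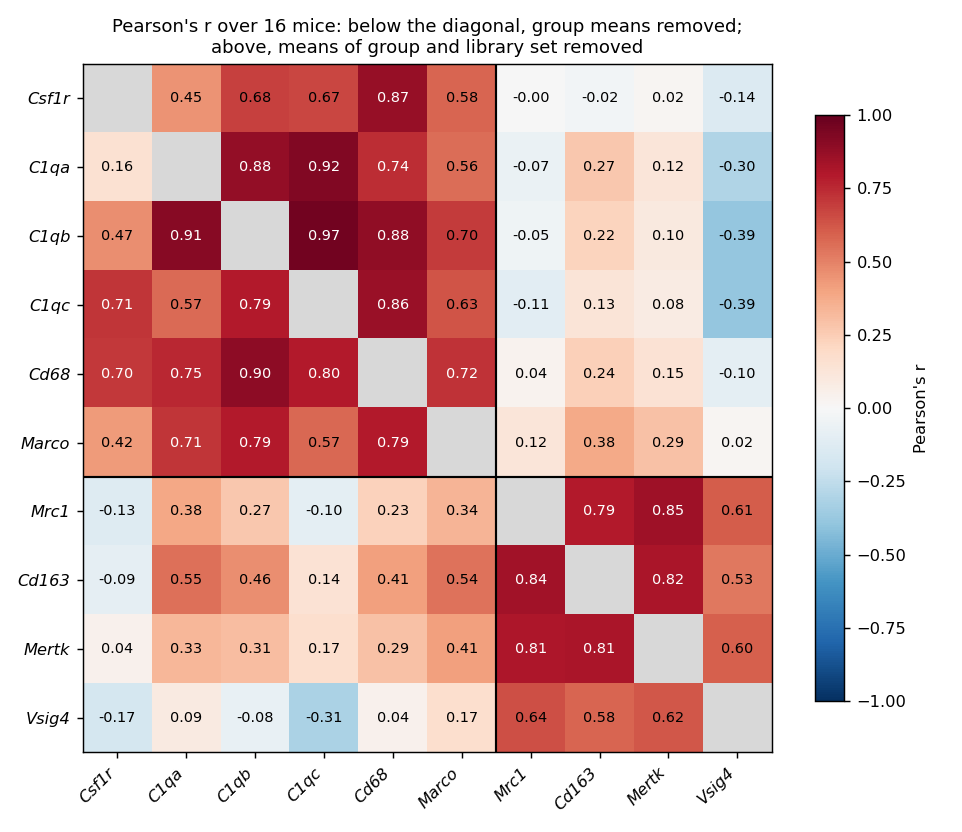
Pearson's r of log2 values for the 45 pairs over 16 mice, below the diagonal with the group means removed and above it with the means of each group within the library set removed; lines separate the sets of 6 and 4 genes. Values within the sets are mostly above 0.5 and those between them from -0.39 to 0.55.

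In the first set, C1qa and C1qb had the highest r of all pairs, 0.91 (permutation p = 1e-05, the smallest these permutations can give, adjusted p = 0.00045; rho = 0.94, adjusted permutation p = 0.00045). Leaving out the 2 mice at the ends of the C1qa range, that is farthest from its median, gave r = 0.86. Among 16972 other features ranked by r with C1qa, C1qb was number 9, and C1qa was number 117 by r with C1qb. Ranks within the set ran from this 9 down to 8135, the latter for C1qa by r with Csf1r. C1qb and Cd68 had r = 0.90 (permutation p = 4e-05, adjusted p = 9e-04; rho = 0.85, adjusted permutation p = 0.0036), and r = 0.80 without the 2 farthest mice. Csf1r followed C1qc with r = 0.71 (permutation p = 0.00225, adjusted p = 0.00844; rho = 0.76, adjusted permutation p = 0.0057) and Cd68 with r = 0.70 (permutation p = 0.0078, adjusted p = 0.027; rho = 0.68, adjusted permutation p = 0.0214). Without the 2 farthest mice these were 0.63 and 0.52. Marco, in spite of its few reads, had r = 0.79 with both C1qb and Cd68 (adjusted permutation p = 0.00626 and 0.0081; rho = 0.76 and 0.79, adjusted permutation p = 0.0057 and 0.00437). Without the 2 mice farthest on the partner's scale these were 0.62 and 0.63. The lowest of the 16 mice was HLU 4 for each of the 6 genes of this set and for no gene of the other. Without HLU 4, 8 of the 15 pairs passed. An r of at least 0.7 was found for 15.1% of all features with C1qc, 8.56% with C1qb, 6.99% with Cd68, 5.72% with Csf1r, 3.62% with C1qa and 1.36% with Marco.

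In the second set, Mrc1 and Cd163 had r = 0.84 (permutation p = 0.00019, adjusted p = 0.00122; rho = 0.80, adjusted permutation p = 0.00437) and r = 0.77 without the 2 mice farthest on Mrc1. Mertk had r = 0.81 with Mrc1 and 0.81 with Cd163 (adjusted permutation p = 0.00108 and 0.00122; rho = 0.75 and 0.81, adjusted permutation p = 0.00679 and 0.00437), or 0.74 and 0.71 without the 2 farthest. Vsig4 had r = 0.64 with Mrc1 (adjusted permutation p = 0.0379; rho = 0.66, adjusted permutation p = 0.029) and r = 0.62 with Mertk (adjusted permutation p = 0.0416; rho = 0.61, adjusted permutation p = 0.0444), or 0.45 and 0.45 without the 2 farthest. The highest of the 16 mice was Control 4 for each of the 4 genes of this set and for no gene of the first. Without Control 4, 3 of the 6 pairs passed, and so did 3 of the 24 pairs between the sets. An r of at least 0.7 was found for 13.7% of all features with Mrc1, 3.42% with Cd163, 1.29% with Mertk and 1.08% with Vsig4.

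The sets had been read off from the 16 mice, which include the 11 libraries, so the counts that follow are no separate check of them. With means removed within the library set as well, 14 of 15 pairs passed in the first set, 3 of 6 in the second and 0 of 24 between them, and without the 5 libraries 13, 3 and 0 did. Within the 8 control mice alone 0 of the 45 pairs passed after adjustment and 10 had an unadjusted p under 0.05, while in the 8 HLU mice 5 passed and 16 had an unadjusted p under 0.05. The difference between the groups was not tested. Over the 28 alternatives, pairs between the sets passed in 5. Without Control 4, C1qa and Cd163 reached r = 0.76, C1qb and Cd163 0.68 and Marco and Cd163 0.64 (adjusted permutation p = 0.00979, 0.015 and 0.016). Cd163 was in each of the pairs between the sets that passed in any alternative.

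**Figure D4:**
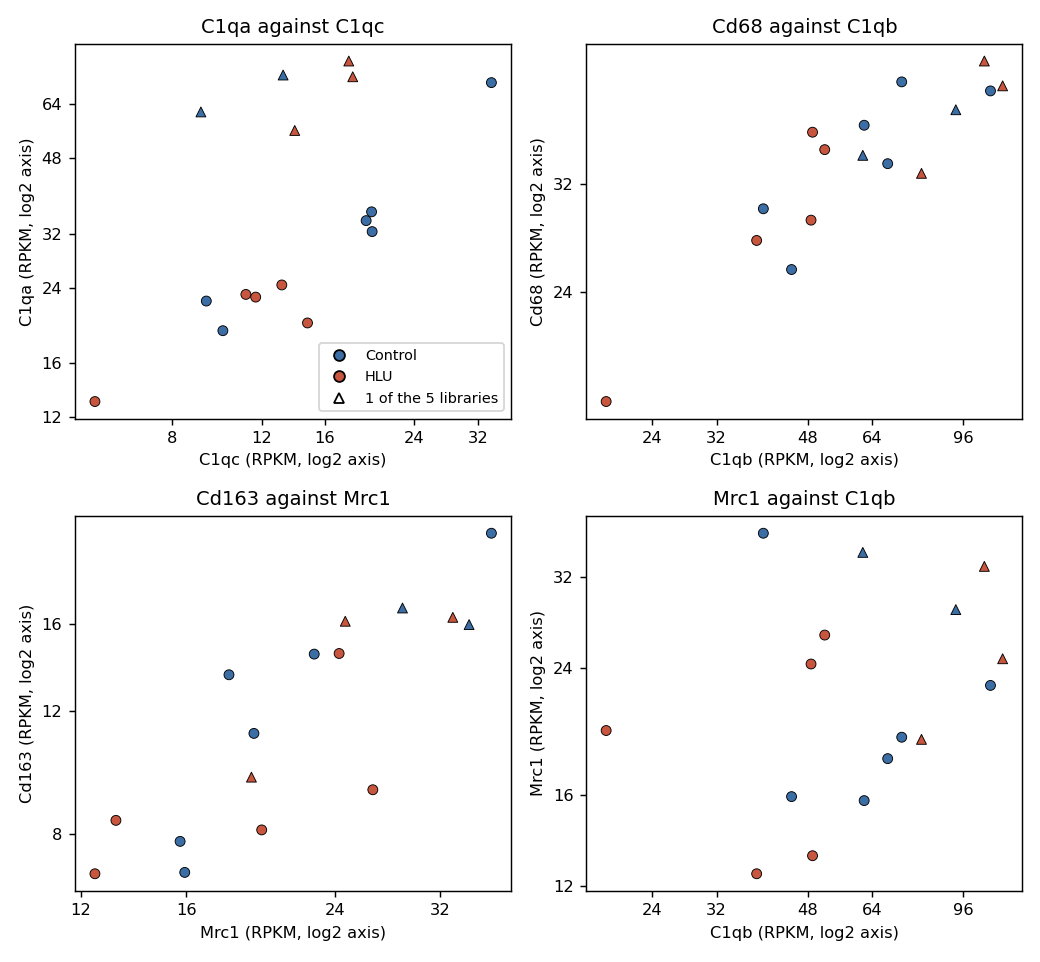
RPKM of 4 pairs of genes, 1 point per mouse on log2 axes (control blue, HLU red, triangles for the 5 libraries). C1qa follows C1qc along separate lines in the 5 libraries and in the other 11, Cd68 follows C1qb and Cd163 follows Mrc1 across all 16 mice, and Mrc1 shows no such order with C1qb (r = 0.27).

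The C1q chains are made in equal numbers for the protein, and their transcripts were compared within each mouse. C1qa and C1qc had r = 0.57 over the 16 mice (permutation p = 0.021, adjusted p = 0.055; rho = 0.61, adjusted permutation p = 0.042), and 0.48 without the 2 farthest. With means removed within the library set, r was 0.92 (adjusted permutation p = 0.003), and it was also 0.92 in the 11 libraries. The ratio of C1qa to C1qc RPKM was 6.74 in Control 1, 5.65 in Control 2, 3.99 in HLU 1, 4.08 in HLU 2 and 4.52 in HLU 3, and 1.34 to 2.39 in the other 11, so these did not overlap. The ratio of C1qb to C1qc also did not overlap, at 5.72 to 7.03 and 3.19 to 4.44. C1qa itself was at a mean of 69.3 RPKM in the 5 and 29.0 in the 11, C1qb at 90.9 and 54.9, and C1qc at 14.5 and 15.3. Between HLU and control mice the C1qa to C1qc ratio had medians of 2.19 and 2.00 (exact permutation p = 0.959). The lengths in the files are 1040 bases for C1qa, 1088 for C1qb and 2149 for C1qc, and the level of each ratio rests on them. The set had been chosen after the values were seen, so the lack of overlap and the higher r within it are a description and no test. What sets the 5 libraries apart was not tested.

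By the rule set for naming genes, the 10 features whose pattern over the 16 mice was most like the mean standardised pattern of the 10 genes were Rims3 (r = 0.94), Cd5l (0.94), Hmox1 (0.92), Siglec1 (0.92), Sirpa (0.92), Arhgef2 (0.91), Gltscr1l (0.90), Wdfy4 (0.90), Tk2 (0.90) and Phf21a (0.90), given as a description. Cd5l, Hmox1 and Siglec1 stand in the list of resident and iron-recycling macrophage genes used below. The rest of that list did not all follow the pattern, with r from 0.88 for Itgad through 0.47 for Folr2 and 0.29 for F13a1 to -0.72 for Lyve1. Cd5l encodes a protein secreted by macrophages, Hmox1 the enzyme that breaks down haem, and Siglec1 the sialic acid receptor CD169. Their means were 17.9, 52.0 and 2.02 RPKM.

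The 2 most abundant genes of each of 6 related lists were set against the 10 genes, which gave 120 relations. Of these 43 had an unadjusted p under 0.05 and 22 an adjusted permutation p under 0.05, 18 positive and 4 negative, and 13 passed by rank correlation. The share of all features that would pass in this way was not computed, so the counts are not particular to these lists. Among all features, 13.7% reached an r of at least 0.7 with Mrc1 and 3.42% with Cd163. Vcam1, an adhesion molecule of island macrophages and stroma, had r = 0.96 with Mrc1 (adjusted permutation p = 4e-04; rho = 0.94, adjusted permutation p = 0.0006) and 0.90 with Cd163 (adjusted permutation p = 0.00048; rho = 0.91, adjusted permutation p = 0.0006). Slc40a1, the iron exporter ferroportin, had r = 0.93 with Mrc1 (adjusted permutation p = 0.00048; rho = 0.91, adjusted permutation p = 0.0006). Without the 2 farthest mice these were 0.95, 0.88 and 0.90, and in the 11 libraries 0.97, 0.86 and 0.96. With the 6 genes of the first set, Vcam1 had r from -0.03 for Csf1r to 0.49 for Marco and Slc40a1 from -0.09 for Csf1r to 0.35 for Marco, and none passed.

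Tyrobp, the signalling adaptor DAP12, went with the first set, with r = 0.90 to C1qc and 0.89 to C1qb (adjusted permutation p = 4e-04 for both; rho = 0.92 and 0.83, adjusted permutation p = 0.0006 and 0.0066). Without the 2 farthest mice these were 0.84 and 0.78, and in the 11 libraries 0.90 and 0.94. Among all features, 15.1% reached an r of at least 0.7 with C1qc and 8.56% with C1qb. The r of Tyrobp with Mrc1 was -0.03 and did not pass. The negative relations were all those of Cd36, a fatty acid and scavenger receptor that adipocytes and endothelium also express, with r = -0.89 to C1qb (adjusted permutation p = 0.0028; rho = -0.85, adjusted permutation p = 0.0066), and -0.84 without the 2 farthest mice. With means removed within the library set this was -0.75 and missed the threshold (adjusted permutation p = 0.0702).

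Macrophage genes outside the 10, here and in the next paragraph, were set beside all features. Of all features 5.87% passed the unadjusted limit and 67.9% had values below 0, with a median of -0.10. No list was tested against these shares. Of 18 other general macrophage genes 0 passed the unadjusted limit in either direction and 15 had a value below 0, with a median log2 fold change of -0.21. The most abundant, the lysozyme gene Lyz2, was at 2136 ± 305 RPKM in control and 1909 ± 701 RPKM in unloaded mice (SD, n = 8 each). Which cells of the bone gave the Lyz2 RNA was not tested. Tyrobp was at 224 ± 80.3 and 203 ± 84.9 RPKM (SD, n = 8 each). Of 13 resident and iron-recycling genes 0 passed (median -0.18). Vcam1 was at 85.2 ± 29.4 and 73.1 ± 25.9 RPKM and Slc40a1 at 79.1 ± 23.6 and 71.4 ± 25.2 RPKM (SD, n = 8 each). Of 11 ligands of Csf1r and lineage transcription factors 1 was higher in HLU mice, against 1.11% of all features. This was Maf, a factor of resident macrophages that other cells of bone also express, at 12.3 ± 2.38 and 16.8 ± 4.35 RPKM (SD, n = 8 each, log2 fold change 0.43, SE 0.16, exact permutation p = 0.015), with an adjusted limma p of 0.744.

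Of 13 kept genes for the clearance of dead cells 0 passed (median 0.02), with Cd36 at 76.2 ± 11.0 and 86.4 ± 27.8 RPKM and Rac1, a GTPase of engulfment, at 72.3 ± 4.16 and 66.7 ± 7.34 RPKM (SD, n = 8 each). Of 14 complement genes other than the C1q chains 0 passed (median -0.03). The C1 inhibitor Serping1 was at 75.5 ± 16.1 and 85.6 ± 12.1 RPKM, and C3 at 70.7 ± 11.5 and 65.3 ± 28.1 RPKM (SD, n = 8 each). Of 8 monocyte genes 0 passed (median -0.14), with Ly6c2 at 221 ± 37.3 and 195 ± 69.1 RPKM and Plac8 at 96.8 ± 26.7 and 73.6 ± 26.6 RPKM (SD, n = 8 each). Of 6 kept genes of inflammatory activation 0 passed (median -0.29), among them the cytokine genes Il1b at 8.39 ± 5.26 and 6.36 ± 3.27 RPKM and Il1a at 6.62 ± 2.49 and 4.81 ± 1.98 RPKM (SD, n = 8 each). Of 4 kept genes of alternative activation 1 was lower, the lectin Clec10a, at 3.64 ± 0.790 and 2.80 ± 0.668 RPKM (SD, n = 8 each, log2 fold change -0.37, SE 0.17, exact permutation p = 0.045), against 4.76% of all features. It missed the limit with the library set as a term. Chi3l3, a chitinase-like protein, was at 690 ± 134 and 564 ± 240 RPKM, and Retnla at 4.20 ± 2.55 and 6.46 ± 4.17 RPKM (SD, n = 8 each). Chi3l3 was thus far above Clec10a and Retnla, and which cells gave its RNA was not tested. With the library set as a term, where 7.06% of all features were lower and 2.64% higher, 3 of the 18 general macrophage genes, 2 of the 13 resident genes, 1 of the 8 monocyte genes and 1 of the 6 inflammatory genes were lower. In the same fit Maf, 1 complement gene and Retnla, of alternative activation, were higher.

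**Figure D5:**
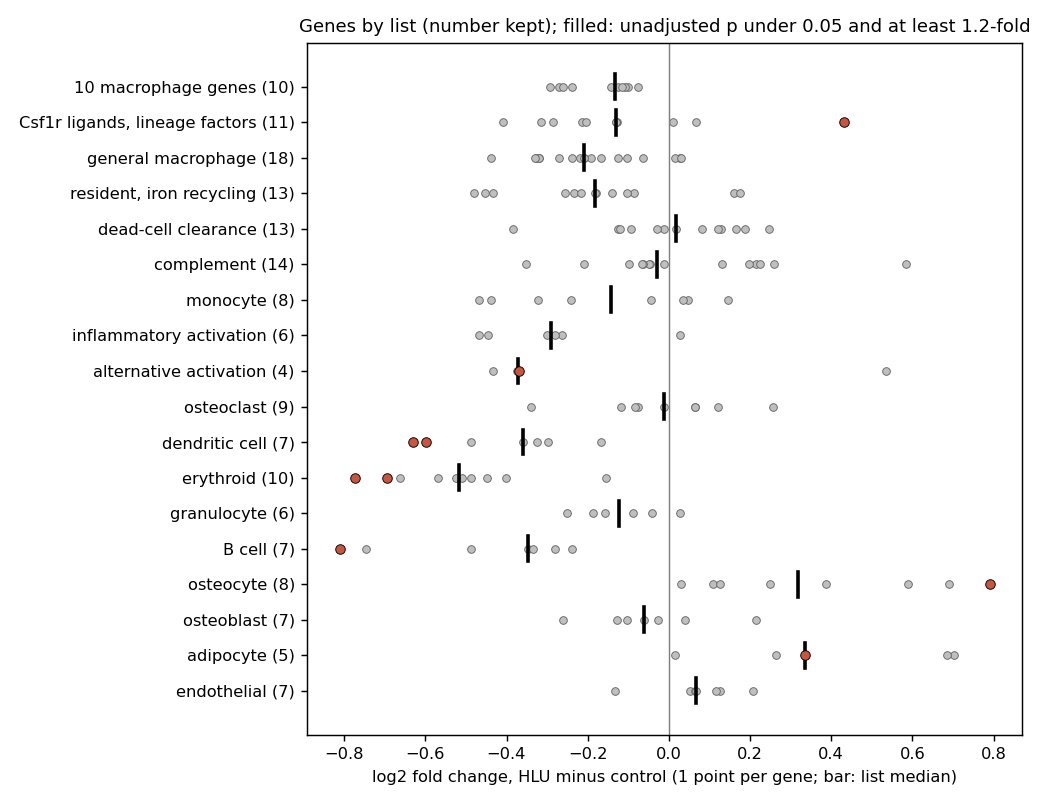
Log2 fold change, HLU minus control, of each gene kept in 18 lists, with the number of genes in brackets, the list median as a black bar and genes past an unadjusted p of 0.05 and 1.2-fold in red. The 10 macrophage genes lie between -0.29 and -0.08, the erythroid genes are all below 0 (median -0.52) and the osteocyte genes all above 0 (median 0.32).

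Markers of other cells were read against all features, of which 4.76% passed as lower and 1.11% as higher, and 67.9% had values below 0. No difference between lists was tested. All 10 erythroid genes had values below 0 (median -0.52), and 2 passed as lower, Hbb-b1 at 1271 ± 638 and 734 ± 306 RPKM and Klf1 at 41.6 ± 14.04 and 27.8 ± 15.9 RPKM (SD, n = 8 each). The summed erythroid level ran from 2416 to 5520 RPKM in control and from 1161 to 3179 RPKM in HLU mice. Of 6 granulocyte genes 0 passed, with sums from 17333 to 37482 and from 12247 to 44122 RPKM. Of 7 B cell genes 1 was lower, Vpreb3, with sums from 467 to 1606 and from 275 to 1183 RPKM. Of 7 dendritic cell genes 2 were lower, Clec9a and Siglech, with sums from 49.4 to 74.6 and from 33.3 to 63.2 RPKM. Of 9 osteoclast genes 0 passed, with Ctsk at 676 ± 215 and 815 ± 272 RPKM (SD, n = 8 each). Of 8 osteocyte genes 1 was higher, Mepe, of 5 adipocyte genes 1, Fabp4, and of 7 osteoblast and 7 endothelial genes 0. No gene of these lists was at 0 in all mice. With the erythroid and granulocyte scores as covariates, 5 of the 10 macrophage genes had values above 0 (Csf1r 0.07, C1qb 0.14, C1qc 0.33, Cd68 0.04 and Marco 0.24), and 0 passed. In this fit the median over the 10 was -0.017 and over all features -0.025, so both moved toward 0. Of all 16973 features 864 passed as higher and 1302 as lower in it.

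The 10 genes were also set against 7 of these scores and sequencing depth over the mice, with group means removed. Of the 80 relations 19 had an unadjusted p under 0.05, 0 passed adjustment by Pearson's r, with a smallest adjusted p of 0.0597, and 1 passed by rank correlation, Mertk with the B cell score (rho = 0.81, adjusted permutation p = 0.027; r = 0.67, permutation p = 0.006, adjusted p = 0.068). The largest r was that of Csf1r with the endothelial score (0.77, permutation p = 0.002, adjusted p = 0.0597; rho = 0.74, adjusted permutation p = 0.078), which was 0.56 without the 2 farthest mice. Mrc1 had r = 0.71 with the granulocyte score (adjusted permutation p = 0.0597; rho = 0.61, adjusted permutation p = 0.129) and -0.71 with the adipocyte score (adjusted permutation p = 0.068; rho = -0.70, adjusted permutation p = 0.094). Csf1r, which osteoclasts share, had r = 0.61 with the osteoclast score (adjusted permutation p = 0.085; rho = 0.56, adjusted permutation p = 0.177), or 0.45 without the 2 farthest. With log10 depth r ran from -0.34 for Mertk to 0.02 for Vsig4. With means removed within the library set, r was 0.68 for Mertk with the B cell score, 0.80 for Csf1r with the endothelial and 0.61 with the osteoclast score, and 0.60 and -0.60 for Mrc1 with the granulocyte and adipocyte scores. After the erythroid and granulocyte scores were regressed out of each gene, 11 of 15 pairs passed in the first set, 3 of 6 in the second and 0 of 24 between them.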

How the data were processed

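RNA of femoral cortical bone was sequenced from 16 mice, 8 per group, as 1 library each. The authors deposited RPKM per feature for each mouse, made from reads aligned to mm9, and the submitters' processing notes name TopHat2 and DESeq2 without versions. How reads were counted, and on which strand, is not given in the sources used here. Features averaging 0.5 RPKM or more, 16973 in number, were put on a log2 scale after adding 0.1 RPKM, and limma 3.58.1 (R 4.3.3) was run on them (trended variance, 14 residual degrees of freedom, Benjamini-Hochberg over all features), in place of the count test of the study, since the files hold no counts. Fold changes on this scale understate changes of low genes. A call needed at least 1.2-fold with p under 0.05 before adjustment, or under 0.1 after it. Exact permutation tests were two-sided over the 12870 splits of the mice, with a smallest possible p of 0.000155. Steps in the RPKM values gave whole reads for 99.99% of features, and limma-voom on those reads was an alternative. A marker score was the mean over a list of log2 values, each gene's mean over the mice having been subtracted. Named genes were those called and, in the macrophage lists, the 2 with the highest mean, of which 1 is not reported here. The fit was tested on simulated data, where 115 of 200 changes of 2-fold were recovered at the adjusted limit, with 8 false calls. The members and lists were chosen with earlier results of these data known. Nothing in the labels says more than that the mice were separate, so p-values measure the spread between these samples. Intervals and the 3-read values cover the stated error only. Python 3.11.15 with scipy 1.17.1 was used for permutations. Genes such as Ccr2 and Mpo, and the 8 skeletal muscle markers, were not analysed here.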

Additional observations from a re-analysis of the deposited data

Results flagged for a closer look

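In the 20 sets of 8 mice tested, 1 for each gene and group, 2 had a mouse whose distance from the nearest other mouse was large against the range of its group. C1qc in Control 7 was at 34.1 RPKM, with the next control mouse at 19.8 RPKM. Marco in HLU 3 was at 9.24 RPKM, with the next HLU mouse at 1.54 RPKM. Chance gives such a mouse in about 1 of 20 sets. The cause of either was not tested.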

How the results depend on the processing

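Over all features, 188 were higher and 808 lower in HLU mice at the unadjusted limit. The count higher was 391 without a filter, 106 at a minimum mean of 2 RPKM, 381 with median-of-ratios factors, 460 after quantile normalization, 864 with the erythroid and granulocyte scores as covariates, 108 without the 2 smallest libraries, and 448 both with the 5 libraries as a term and without them. The count lower was 395 with median-of-ratios factors, 364 after quantile normalization, 1302 with the covariates and 1566 without the 5 libraries. At the adjusted limit the count was 0, and 1 without a filter, without the variance trend, with the term and without the 5 libraries. Of the macrophage genes 2 passed without the 5 libraries and 0 in the other alternatives. Leaving out 1 mouse gave 117 to 363 features higher, 471 to 1385 lower, 0 to 1 at the adjusted limit, 0 to 0 macrophage genes and 12 to 18 pairs. The pairs passing numbered 0 in control mice alone and 5 in HLU mice alone. The log2 fold change turned above 0 after quantile normalization for Csf1r (0.035), Cd68 (0.014), Vsig4 (0.021), Marco (0.016) and Mertk (0.0072), and with the covariates for Csf1r (0.074), C1qb (0.14), C1qc (0.33), Cd68 (0.044) and Marco (0.24). Marco was also at 0.053 with a pseudocount of 1 and 0.0027 with median-of-ratios factors. Leaving out 1 mouse gave -0.29 to 0.075 for Vsig4, above 0 without Control 1 (0.027), Control 4 (0.075) or HLU 1 (0.025), and -0.50 to 0.22 for Marco, above 0 without Control 2 (0.055), Control 8 (0.014), HLU 4 (0.22) or HLU 7 (0.056). The median over the 10 genes ran from -0.27 without Control 6 to -0.093 without HLU 7. Of single genes, C1qa ran from -0.48 without HLU 3 to -0.11 without HLU 4, C1qb from -0.39 without HLU 3 to -0.025 without HLU 4, Csf1r from -0.17 without HLU 5 to -0.0039 without HLU 4 and Cd68 from -0.19 without HLU 2 to -0.0045 without HLU 4. C1qc ran from -0.38 to -0.11, Mrc1 from -0.24 to -0.039, Cd163 from -0.38 to -0.15 and Mertk from -0.17 to -0.056. The cause of these changes was not tested. With the replicate number as a block, 199 features were higher, 840 lower, 0 passed adjustment and 0 macrophage genes passed. The labels do not tie mice of the same number together. Of 8 such pairs of mice, 3 correlated above 0.1 (-0.17 to 0.51). Of 8 control mice, 1 was closest to the HLU mouse of its own number. The 5 libraries carry low numbers in both groups. With the block the standard error was 0.26 against 0.40 for C1qa and 0.152 against 0.148 for Csf1r. What the numbers share was not tested. Limma-voom on recovered reads gave 183 higher and 915 lower. Vsig4 and Marco gave no value at a minimum mean of 2 RPKM. The 5 libraries, as a term or left out, were chosen after seeing the data. Few reads limit Vsig4 (8 to 63 per mouse) and Marco (6 to 291).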
